A study of Mus musculus with 30 samples.

Results

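Dppa2, Dppa3, Dppa4, Dppa5a, Tdgf1, Utf1, Tcl1, Fgf4 and Gdf3 are marker genes of mouse embryonic stem cells, and their RNA was followed through a time course of cycloheximide. They were found by matching gene identifiers, without the version suffix, to these symbols, and all 9 were present among the 57186 genes counted. The study measured RNA in 2 mouse cell lines, the CGR8 embryonic stem cell line and the NIH/3T3 fibroblast line, which served here as the cells that should lack these genes. Both lines carry a ROSA26 SLT knock-in. RNA was collected at 0, 1, 2, 5 and 48 h of cycloheximide, an inhibitor of translation elongation, with 3 replicate libraries (A, B and C) for each line and time, 30 libraries in all. CGR8 cells were kept in N2B27 medium with 2i/LIF and NIH/3T3 cells in DMEM with serum, and the labels give 0.1 µg/mL cycloheximide as the treatment of every library, the 0 h ones included. No untreated 48 h library was analysed here, so time in culture and time in cycloheximide cannot be told apart. The labels do not say whether replicates were separate cultures, so p-values measure only the spread between these libraries.

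These genes mark the naive pluripotent state, in which a network of transcription factors around OCT4, SOX2 and NANOG keeps cells able to form every tissue of the embryo. DPPA2 and DPPA4 bind chromatin as a pair and keep developmental promoters open, DPPA3 (also called Stella) guards DNA against methylation by binding UHRF1, and DPPA5 is a small RNA-binding protein. TDGF1 (Cripto) is a cell-surface co-receptor for Nodal and for the related ligand GDF3, FGF4 is the growth factor with which stem cells activate their own ERK pathway, UTF1 is a chromatin-bound protein and TCL1 is a co-activator of the AKT kinase.

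The sequences shown here are those of the gene that behaved unlike most of the others, Fgf4, and of the one with the largest rise among those above 10 CPM, Tdgf1. The enhancer of Fgf4 that is bound by SOX2 and OCT4 lies in its own 3′ UTR. In the GENCODE M21 transcript (build GRCm38) a SOX and an OCT site side by side (CTTTGTT, then any 3 bases, then ATGCTAAT) start at base 1453 of that UTR. The pattern has the letters and spacing of the Fgf4 site itself, so a match in Fgf4 was fixed in advance. On either strand it was found in the 3′ UTR of 1 of 20823 protein-coding genes. That count does not measure how common SOX and OCT pairs are. The same UTR holds TATTTAT, the core of AU-rich elements that mark short-lived transcripts, starting at base 139. Capitals mark the searched letters, on the transcript's strand.

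Fgf4 SOX and OCT pair: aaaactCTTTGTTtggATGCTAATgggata
Fgf4 AU-rich core: ggacgcccaatTATTTATaattttatgtat

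The Fgf4 3′ UTR was 2302 bases long, against a median of 848 over protein-coding genes, and held ATTTA 6 times. Gdf3 and Tcl1 each held ATTTA 2 times, Dppa2, Dppa3 and Tdgf1 1 time, and Dppa4, Dppa5a and Utf1 none. TATTTAT occurred in the 3′ UTR of 26.1% of genes and ATTTA in 62.7%, and TATTTAT was in none of the other 8 UTRs. Promoter windows of 300 bases, from 250 before the start site to 50 after it, were at hand for Tdgf1, Utf1, Tcl1 and Fgf4 from RefSeq (GRCm38.p6). Those of Tdgf1 (chr9:110946109-110946408, minus strand) and Fgf4 (chr7:144861136-144861435, plus strand) are printed from 5′ to 3′ on the gene's strand. Capitals mark the GC box GGGCGG, read as CCGCCC where it lies on the opposite strand, and in Fgf4 also ATTGG, the CCAAT box on the opposite strand.

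Tdgf1: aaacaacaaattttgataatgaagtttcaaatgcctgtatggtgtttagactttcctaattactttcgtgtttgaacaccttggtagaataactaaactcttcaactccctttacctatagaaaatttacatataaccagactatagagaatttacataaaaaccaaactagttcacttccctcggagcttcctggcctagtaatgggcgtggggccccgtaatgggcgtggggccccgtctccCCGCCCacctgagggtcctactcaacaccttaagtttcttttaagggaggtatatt
Fgf4: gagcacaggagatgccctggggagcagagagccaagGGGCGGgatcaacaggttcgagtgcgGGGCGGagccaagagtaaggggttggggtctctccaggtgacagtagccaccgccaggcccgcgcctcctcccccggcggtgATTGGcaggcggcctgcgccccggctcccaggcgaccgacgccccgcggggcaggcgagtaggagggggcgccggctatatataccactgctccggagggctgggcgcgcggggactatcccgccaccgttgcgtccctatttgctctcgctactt

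The Fgf4 window held 28 CpG sites and 69.7% G and C, against 7 CpG sites and 41.7% in Tdgf1, where the median of 32851 promoters was 7 CpG sites. Utf1 (17 CpG sites) and Tcl1 (11) lay between them. GC boxes were found 4 times in Utf1, 2 times each in Fgf4 and Tcl1 and 1 time in Tdgf1, and 35.7% of all promoters held at least 1. The TATA box core TATAAA was searched on both strands, as were the E box CACGTG, the octamer ATTTGCAT and the SOX core CATTGTT, and none matched in these 4 windows. These exact strings occur in 13.6%, 7.15%, 1.74% and 3.78% of all promoters. Variants of them were not searched, such as the tatatata that can be read in the Fgf4 window, so a TATA-like site is not excluded. These matches are letters in a window and no measure of binding.

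Library totals ranged from 18.2 to 30.5 M counts. All 16 pluripotency transcription factors listed were above 1 CPM (a gene's count scaled to library size with TMM factors) in CGR8 at 0 h, and fibroblast markers summed to 7833 to 8411 CPM in NIH/3T3 at 0 h, against 859 to 949 CPM in CGR8, where Fn1 made up most of the sum. CGR8 0 h replicate B and 2 h replicate A stood apart from the other replicates of their groups in the number of genes with a count, 22012 against 23425 and 24355 at 0 h and 22384 against 24502 and 24767 at 2 h. Results that rest on them are given without them. In NIH/3T3, 1 h replicate C had 19551 genes with a count, against 20911 and 21467 in the other replicates. The 2 h replicate A of that line had 18904, against 20653 and 21232. Counts measure each gene's share of a library's RNA, so fewer cells expressing a gene and less RNA per cell cannot be told apart, and neither can slower decay and faster synthesis.

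At 0 h in CGR8, Dppa5a was by far the most abundant of the 9 RNAs per length, at 1489 ± 208 CPM per kb of transcript (SD, n = 3). Utf1 (224 ± 46.8) and Tdgf1 (209 ± 6.94) followed and did not differ beyond their spread. Next came Gdf3 (82.3 ± 11.7), Fgf4 (77.2 ± 3.55) and Tcl1 (70.4 ± 12.3) CPM per kb, whose libraries overlapped. Dppa4 stood at 60.7 ± 2.85, Dppa2 at 45.8 ± 5.00 and Dppa3 at 2.55 ± 0.461 CPM per kb. Dppa3 therefore rests on few reads, 39 to 153 counts per library.

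Over the time course in CGR8 the genes fell into groups of unlike behaviour. Dppa2, Dppa3, Dppa4, Dppa5a, Tdgf1 and Gdf3 rose to a peak at 5 h, by 0.70 to 1.41 on the log2 scale, and were lower again at 48 h. Fgf4 was lowest at 2 h, already lower at 1 h, and back at its starting level by 48 h. Utf1 was lower at 5 h in a call that many changes of processing ended. Tcl1 was called at no time as fitted with TMM factors, but was called at 5 h with library-size scaling or with a length and GC correction.

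**Figure D1:**
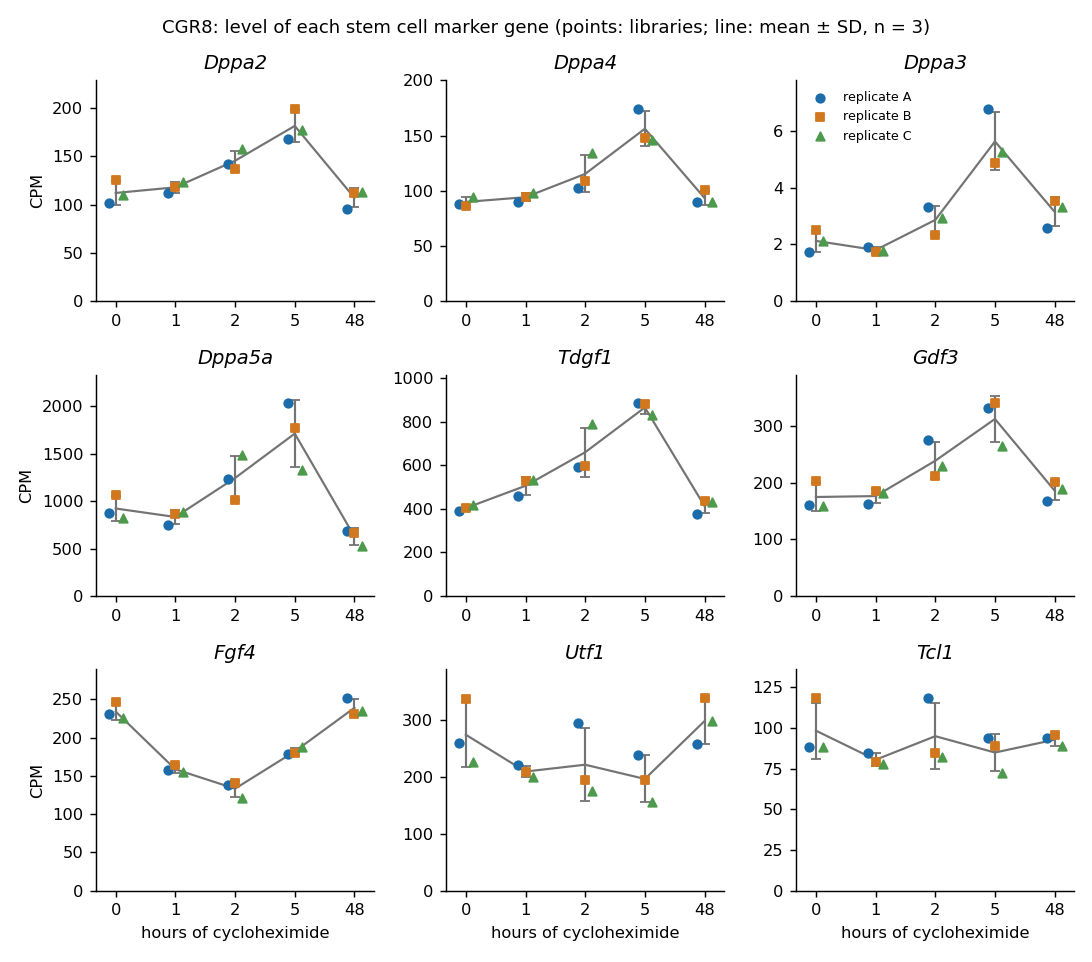
RNA level (CPM, linear axes from 0) of each of the 9 genes in CGR8 against hours of cycloheximide (categories, not to scale), with replicates A, B and C as points and the mean ± SD (n = 3) as a line. Dppa2, Dppa4, Dppa3, Dppa5a, Tdgf1 and Gdf3 peak at 5 h, Fgf4 dips to 121 to 141 CPM at 2 h, and the Utf1 and Tcl1 libraries at 5 h overlap with those at 0 h.

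Among the chromatin factors, Dppa2 was at 101, 125 and 109 CPM at 0 h in replicates A, B and C. At 5 h it was at 168, 199 and 177 CPM, and at 48 h at 95.9, 112 and 113 CPM. All libraries at 5 h lay above all those at 0 h and 48 h, and those at 0 h and 48 h overlapped. The 5 h level was 1.62-fold that at 0 h (log2 fold change 0.70, SE 0.11, adjusted p = 7.57e-05, edgeR quasi-likelihood test with Benjamini-Hochberg adjustment over 15933 genes). At 2 h Dppa2 was already higher (137 to 157 CPM, log2 fold change 0.38, SE 0.11, edgeR adjusted p = 0.0234). The call at 2 h was lost in 3 of 6 fits that left out 1 library, 0 h A (adjusted p = 0.118), 0 h C (0.0844) or 2 h C (0.115). It was also lost with no filter (0.0777), on the groups compared alone (0.0898) and with a trend on transcript length and GC content removed (0.309).

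Dppa4, the partner of Dppa2, moved with it. It was at 88.3, 86.6 and 94.6 CPM at 0 h, and at 174, 148 and 146 CPM at 5 h. At 48 h it had come back to 90.1, 100.4 and 89.8 CPM, within reach of the 0 h libraries. The rise at 5 h was 1.74-fold (log2 fold change 0.80, SE 0.11, edgeR adjusted p = 2.92e-05). A smaller rise at 2 h, to 103 to 134 CPM (log2 fold change 0.36, SE 0.11, edgeR adjusted p = 0.0317), was lost without 0 h A, B or C or 2 h C (adjusted p up to 0.178), and in the same 3 other settings as that of Dppa2 (0.102, 0.115 and, with the length and GC trend removed, 0.393).

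Dppa3 was scarce throughout, at 1.73, 2.50 and 2.13 CPM at 0 h. At 5 h it reached 6.79, 4.86 and 5.25 CPM, and at 48 h it stood at 2.57, 3.54 and 3.33 CPM. Every library at 5 h was above every other library of the line. Its rise at 5 h was 2.66-fold (log2 fold change 1.41, SE 0.19, edgeR adjusted p = 2.86e-05), the largest of the 9 as fitted. With the length and GC trend removed it was 0.69 (adjusted p = 0.00525), below the 0.75 of Tdgf1. At 48 h it was still above its start (log2 fold change 0.57, SE 0.20, edgeR adjusted p = 0.0419), a call lost in 4 of 6 fits with 1 library left out (without 0 h A or C, or 48 h B or C, adjusted p from 0.0867 to 0.172) and with the replicate letter as a block, with no filter (both 0.0588) or on the groups compared alone (0.0580).

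Dppa5a, the RNA-binding protein gene, was at 874, 1068 and 824 CPM at 0 h. At 5 h it was at 2029, 1772 and 1333 CPM, with every library above those at 0 h. At 48 h, at 683, 668 and 529 CPM, every library lay below those at 0 h. The rise at 5 h was 1.86-fold (log2 fold change 0.89, SE 0.17, edgeR adjusted p = 0.000413). With the length and GC trend removed it was 0.25 (adjusted p = 0.0905), which ends the call. Dppa5a was the single gene of the 9 called lower at 48 h than at 0 h (log2 fold change -0.56, SE 0.17, edgeR adjusted p = 0.0211). That fall missed the threshold without 0 h B (adjusted p = 0.104), without 48 h C (0.107) and without both libraries that stood apart (0.0926).

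Of the Nodal pathway pair, the co-receptor gene Tdgf1 was at 389, 405 and 416 CPM at 0 h. It rose to 884, 883 and 829 CPM at 5 h, and was at 375, 435 and 429 CPM at 48 h. The libraries at 5 h stood far above the rest, and those at 0 h and 48 h overlapped. The rise at 5 h was 2.15-fold (log2 fold change 1.10, SE 0.12, edgeR adjusted p = 3.23e-06). At 1 h it was at 460, 527 and 531 CPM, all above 0 h, a difference that did not pass the test (log2 fold change 0.33, SE 0.11, edgeR adjusted p = 0.438). At 2 h, at 592 to 790 CPM, the difference passed (log2 fold change 0.71, SE 0.12, edgeR adjusted p = 0.000889), and this call held in all 6 fits that left out 1 library.

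The ligand gene Gdf3 was at 161, 204 and 159.8 CPM at 0 h. It reached 333, 340.3 and 265 CPM at 5 h, and was at 168, 201 and 189 CPM at 48 h. The 5 h libraries did not overlap with those of 0 h or 48 h. The rise at 5 h was 1.79-fold (log2 fold change 0.84, SE 0.13, edgeR adjusted p = 9.08e-05). At 2 h the change was 0.45 (SE 0.13, edgeR adjusted p = 0.0266) on the log2 scale, a call lost in 4 of 6 fits with 1 library left out (without 0 h A or C, or 2 h A or C, adjusted p up to 0.113), on the groups compared alone (0.0865) and with the length and GC trend removed (0.0765).

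Fgf4, the growth factor gene, took the opposite course. It was at 230.4, 246 and 225 CPM at 0 h, and already at 157, 164 and 155 CPM at 1 h. At 2 h it was at 138, 141 and 121 CPM. No library at 1 h or 2 h reached the lowest at 0 h. The log2 fold change was -0.56 at 1 h (SE 0.09, edgeR adjusted p = 0.00691) and -0.81 at 2 h (SE 0.09, edgeR adjusted p = 3.21e-05), so that at 2 h the level was 0.570 times that at 0 h. The call at 1 h was lost without 1 h A (adjusted p = 0.0507) or 1 h C (0.0823), with log2 fold changes of -0.56 and -0.54.

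By 5 h Fgf4 had partly recovered, to 179, 179 and 187 CPM, still below every 0 h library (log2 fold change -0.36, SE 0.09, edgeR adjusted p = 0.0024). At 48 h it was at 251, 231 and 234 CPM, among the 0 h values (log2 fold change 0.03, SE 0.09, edgeR adjusted p = 0.831). The falls at 2 h and 5 h stayed past the threshold in each fit that left out 1 library and in all 10 other settings run.

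Utf1 varied more between replicates than the genes above, at 260.3, 338 and 226 CPM at 0 h. At 5 h it was at 239.6, 195 and 157 CPM, so that the groups overlapped, and at 48 h at 259, 339 and 299 CPM. It was 0.717 times its 0 h level at 5 h (log2 fold change -0.48, SE 0.19, edgeR adjusted p = 0.0475). Without 0 h replicate B the difference was -0.29 (edgeR adjusted p = 0.237), and without both libraries that stood apart -0.29 (adjusted p = 0.118). It was also lost without 0 h A (adjusted p = 0.066), 5 h B (0.107) or 5 h C (0.169), and called in 5 of 10 other settings. The return from 5 h to 48 h was 0.60 on the log2 scale (SE 0.19, edgeR adjusted p = 0.0144), and missed the threshold without 5 h C (0.0616) or 48 h B (0.0601).

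Tcl1, the AKT co-activator gene, was at 88.3, 118 and 88.6 CPM at 0 h. At 5 h it was at 93.6, 89.1 and 72.2 CPM and at 48 h at 94.1, 95.7 and 88.8 CPM. These groups overlapped, and the log2 fold change at 5 h was -0.21 (SE 0.15, edgeR adjusted p = 0.242). Within the 0 h and the 2 h group, Tcl1 and Utf1 were both highest in the libraries that stood apart, 0 h B and 2 h A. Over the 15 CGR8 libraries Utf1 and Tcl1 had a Pearson r of 0.801, as a description of libraries that share time groups.

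**Figure D2:**
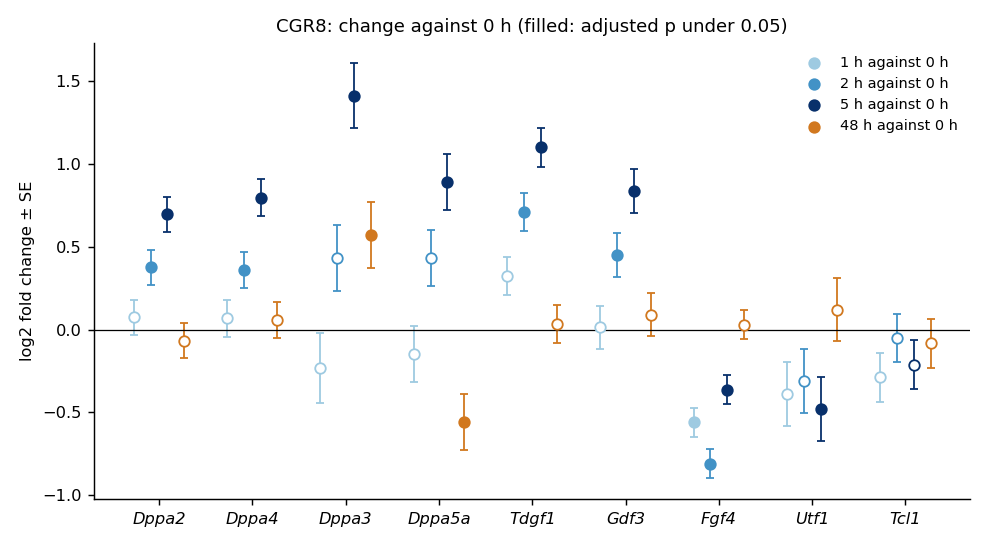
Log2 fold change against 0 h (vertical axis, ± SE) of each of the 9 genes in CGR8 at 1, 2, 5 and 48 h, with filled points where the edgeR adjusted p is under 0.05. At 5 h 6 genes lie between 0.70 and 1.41 and 2 filled points, Fgf4 and Utf1, lie below 0, and at 48 h the filled points are Dppa3 (0.57) and Dppa5a (-0.56).

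These counts stand against many changed genes in the line as a whole, and all comparisons with 0 h share the same 3 libraries. At 5 h 8 of the 9 genes were called, 6 higher and 2 lower, where 52.1% of 15933 tested genes were called, 24.9% higher and 27.2% lower. Over the 9 genes the log2 fold changes had a median of 0.80, and over all genes tested -0.01. At 2 h 4 were called higher and 1 lower, against 19.9% of all genes (8.97% higher and 11% lower). At 1 h Fgf4 alone was called, against 0.27% of all genes, and at 48 h 1 higher and 1 lower against 27.8% (12.2% and 15.6%). The groups did not overlap for 7 of 9 genes at 5 h, where this held for 54.7% of all genes, and for 2 of 9 at 48 h, where it held for 48.7%.

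From 5 h to 48 h, a comparison that does not use the 0 h libraries, 6 of the 9 genes fell and 2 rose, against 57.5% of all genes called (28.9% higher and 28.6% lower). As fitted, Dppa5a fell the most (log2 fold change -1.45, SE 0.17, edgeR adjusted p = 4.63e-06), then Tdgf1 (-1.07, SE 0.12). Values with a trend on transcript length and GC content removed are given below. Dppa3, Dppa2, Gdf3 and Dppa4 fell by 0.84, 0.76, 0.75 and 0.74. Fgf4 rose by 0.39 (SE 0.09, edgeR adjusted p = 0.00109), as did Utf1, and Tcl1 was not called (0.13, SE 0.15) unless the length and GC trend was removed (0.54, edgeR adjusted p = 0.00059). The groups did not overlap for 8 of 9 genes, where this held for 63.1% of all genes.

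The changes at 5 h ran along with properties of transcripts and libraries. Over the 15589 tested genes with a known length, log2 fold change at 5 h had a Pearson r of -0.428 with log2 transcript length, so that short transcripts were higher. Dppa5a (619 bases) and Dppa3 (833 bases) are the shortest of the 9 transcripts and Fgf4 (3030 bases) is the longest. With a trend on length and GC content removed from each library, the 5 h log2 fold changes of Dppa5a and Dppa3 were the smaller ones given above. Tdgf1 (0.75), Gdf3 (0.69), Dppa2 (0.44) and Dppa4 (0.41) remained called higher and Fgf4 (-0.22, adjusted p = 0.0199) and Utf1 (-0.39, adjusted p = 0.0138) lower. Tcl1 became a call (-0.49, adjusted p = 0.00176), all in edgeR. The change from 5 h to 48 h ran with length as well (Pearson r 0.412). With the trend removed, Dppa5a (-0.73) and Tdgf1 (-0.72) fell by near-equal amounts over these hours. Dppa2 (-0.58), Gdf3 (-0.51) and Dppa4 (-0.27) fell by less, Utf1 (0.79) and Fgf4 (0.33) rose, and all of these stayed called. The fall of Dppa3 from 5 h to 48 h became -0.13 (edgeR adjusted p = 0.554), and Utf1 became a call at 48 h against 0 h (0.40, edgeR adjusted p = 0.0143).

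Ribosomal protein genes took 7.38% to 9.09% of counts at 0 h, 10.7% to 15.1% at 5 h and 7.47% to 8.75% at 48 h. At 5 h replicates A, B and C had 15.1%, 12.9% and 10.7%, the same order as their Dppa5a levels. Dppa4, Tdgf1, Utf1 and Tcl1 had that order too, of which Utf1 and Tcl1 did not rise. Dppa2, Dppa3, Gdf3 and Fgf4 had other orders. The part of this shift in the rises was not tested.

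**Figure D3:**
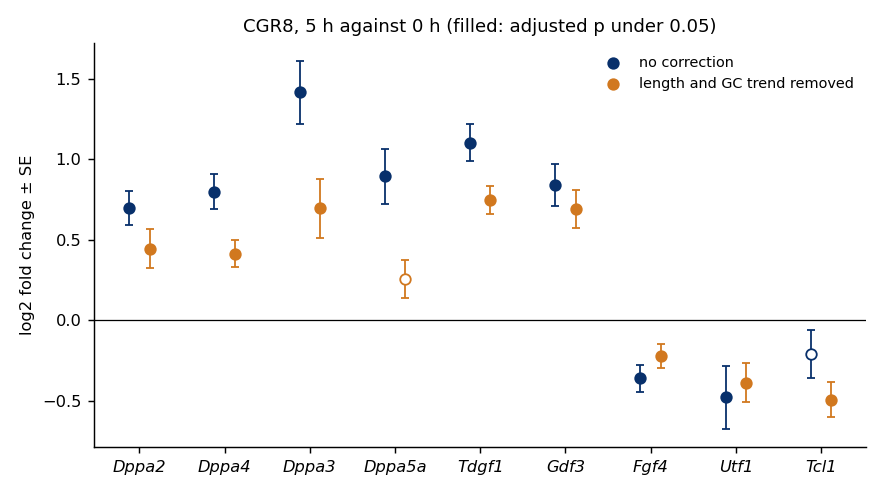
Log2 fold change at 5 h against 0 h (vertical axis, ± SE) of each of the 9 genes in CGR8, as fitted and after removal of a trend on transcript length and GC content, with filled points where the edgeR adjusted p is under 0.05. The correction moves Dppa3 from 1.41 to 0.69 and Dppa5a from 0.89 to 0.25, and leaves Tdgf1, Gdf3, Dppa2 and Dppa4 above 0 and Fgf4 and Utf1 below.

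In NIH/3T3 fibroblasts 7 of the 9 genes were at or near 0. Dppa3 and Tcl1 had 0 counts in all 15 libraries, which allows up to 0.0986 to 0.163 CPM per library. In a single library Utf1, Fgf4 and Gdf3 reached 1 count, Tdgf1 2 and Dppa5a 6. Dppa4 and Dppa2 were the exceptions. Dppa4 had 329 to 548 counts in each NIH/3T3 library (15.1 to 23.3 CPM), and Dppa2 had 81 to 138 (3.29 to 5.87 CPM). At 0 h Dppa4 in CGR8 was 5.28 times, and Dppa2 30.7 times, its NIH/3T3 level, and no library of one line reached the other.

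The reads of Dppa2 and Dppa4 in fibroblasts did not come with those of the other markers. Dppa5a, whose CGR8 level was 529 to 2029 CPM, had 20 counts over all 15 NIH/3T3 libraries, and Tdgf1 had 7. Processed pseudogenes resemble parts of Dppa4 (Gm14058, 99.4% identical over 532 bases, and Gm5501) and Dppa2 (Gm9788 and Gm8023), and how reads were shared between them is not given in the sources used here. The counts of those 4 copies in any NIH/3T3 library reached 8 at most. The copy Tdgf1-ps1 had up to 59.3 CPM in CGR8 and 0 counts in NIH/3T3, so the Tdgf1 level in CGR8 is uncertain, by an amount that was not measured. Pieces of Dppa5a resemble 6 pseudogene copies at most 2.53 CPM in CGR8, and a stretch of the Pigp gene.

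Both genes were tested in NIH/3T3, a comparison added after they were seen to have counts there. Dppa4 was at 17.97, 16.3 and 16.8 CPM at 0 h, at 22.5, 23.3 and 21.4 CPM at 5 h and at 16.3, 16.5 and 17.4 CPM at 48 h. The 5 h libraries were above all those at 0 h and 48 h. The rise at 5 h was 0.40 on the log2 scale (SE 0.11, edgeR adjusted p = 0.00831), where 51% of 13941 genes were called in this line, and the fall from 5 h to 48 h was called too (log2 fold change -0.42, SE 0.11, edgeR adjusted p = 0.00395), where 65.6% were.

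Dppa2 in NIH/3T3 was at 3.998, 3.67 and 3.29 CPM at 0 h, at 4.24, 5.87 and 5.25 CPM at 5 h and at 4.28, 5.09 and 4.74 CPM at 48 h. Its 5 h libraries were above those at 0 h and overlapped with those at 48 h. The rise at 5 h was 0.49 (SE 0.15, edgeR adjusted p = 0.0118) on the log2 scale, and was lost without 0 h C (adjusted p = 0.054) or 5 h B (0.0753). From 5 h to 48 h it changed by -0.12 (SE 0.15, edgeR adjusted p = 0.479). With the length and GC trend removed, neither rise at 5 h passed (Dppa2 0.25, edgeR adjusted p = 0.163, and Dppa4 0.20, adjusted p = 0.0599), and the fall of Dppa4 from 5 h to 48 h was -0.08 (adjusted p = 0.408).

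The difference between the lines was tested as an interaction over all libraries. This fit filtered and scaled both lines together, so its values are not the plain differences of the changes given for each line. The change of Dppa4 at 5 h was 0.49 larger in CGR8 (SE 0.16, edgeR adjusted p = 0.0385), where 13.3% of genes differed and the median over all genes was 0.13. The fall of Dppa2 from 5 h to 48 h was larger in CGR8 by 0.75 (difference -0.75, SE 0.17, edgeR adjusted p = 0.00166), where 26% of genes differed and the median was -0.13. That call was lost without CGR8 5 h B (-0.46, adjusted p = 0.0608). The same difference for Dppa4 was -0.43 (SE 0.16, edgeR adjusted p = 0.0474). Both Dppa4 calls were weak: the one at 5 h was kept in 3 of 9 other settings, with adjusted p up to 0.233, and the one from 5 h to 48 h in 2 of 9, with adjusted p up to 0.295. RLE and library-size scaling, DESeq2, no filter, the 5 CPM filter and the length and GC correction ended both, and the replicate block ended the second (0.0553). Without CGR8 5 h A they were 0.22 (edgeR adjusted p = 0.504) and -0.11 (adjusted p = 0.722). The difference for Dppa2 at 5 h was 0.29 (SE 0.18, edgeR adjusted p = 0.300), a value that leaves equal and unequal rises possible, and passed with voom weights (0.49, limma adjusted p = 0.0255).

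**Figure D4:**
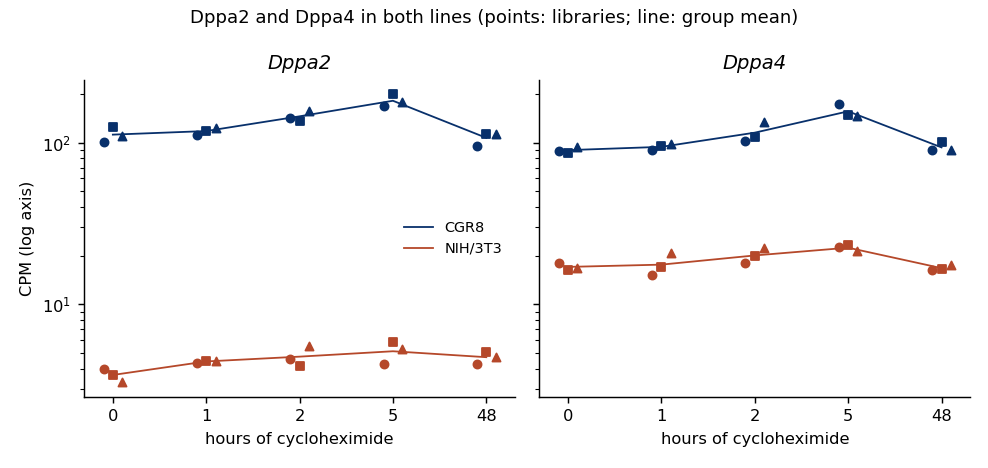
Level (CPM, log axis) of Dppa2 and Dppa4 in CGR8 and NIH/3T3 against hours of cycloheximide, with libraries as points and group means as lines. Dppa4 in NIH/3T3 lies between 15.1 and 23.3 CPM with its highest mean at 5 h, and Dppa2 in NIH/3T3 between 3.29 and 5.87 CPM.

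The genes that rose shared their course across libraries. Over the 15 CGR8 libraries, Pearson r of log2 CPM between pairs of Dppa2, Dppa4, Dppa5a, Tdgf1 and Gdf3 was 0.844 to 0.954, and Dppa3 had 0.600 to 0.855 with them. Fgf4 had -0.612 with Tdgf1 and 0.579 with Utf1. These are descriptions of libraries that share 5 time groups. Among 8145 other genes of at least 10 CPM, the nearest in course were Ndufb4 (r = 0.991) and Snrpe (0.990) for Dppa4, Eif2s1 and Tspan6 (both 0.986) for Dppa2, and Gins2 (0.992) and Cox4i1 (0.991) for Dppa5a. For Tdgf1 they were Gemin2 (0.990) and the stem cell gene Fbxo15 (0.986), for Gdf3 Blmh (0.985) and Timm17a (0.982), and for Dppa3 Zbtb8a (0.967) and Hsf2bp (0.956). Fgf4 was nearest to Irf2bp2 (0.966) and Tob2 (0.961), Utf1 to Srm (0.982) and Snrpa (0.974), and Tcl1 to Eif3f (0.968) and Nt5dc2 (0.962).

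Several members are neighbours in the genome. Dppa2 and Dppa4 lie next to each other on chromosome 16, with Morc1 beside Dppa2, and Morc1 rose at 5 h as well (227 to 350.2 CPM, log2 fold change 0.62, SE 0.11, edgeR adjusted p = 0.000164). Gdf3, Dppa3 and Nanog follow each other on chromosome 6. Nanog rose by 0.62 (SE 0.11, edgeR adjusted p = 0.000207), while the next gene, Slc2a3, which encodes a glucose transporter, fell (log2 fold change -0.82, SE 0.14, edgeR adjusted p = 0.000154). Ooep, an egg gene beside Dppa5a on chromosome 9, rose by 0.94 (SE 0.16, edgeR adjusted p = 0.000173). Neither Fgf3 (log2 fold change -0.60, SE 0.36) nor Fgf15 (-1.10, SE 0.57), the FGF genes beside Fgf4 on chromosome 7, passed the test. Other called genes within 2 places of a member went both ways. Nectin3 (0.39), Lrrc2 (0.42) and Ddx43 (0.80) rose. Als2cl (-0.87), D430019H16Rik (-1.49), Bdkrb2 (-1.88) and Ano1 (-3.90) fell, all from below 10 CPM. Over all genes, 24.9% were called higher and 27.2% lower at 5 h.

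The transcription factors that regulate these genes did not follow a single course. Values of this list and of those that follow are as fitted, without the length and GC correction. Over all genes with a known length, the change at 5 h ran with transcript length (Pearson r -0.428). The part of this trend in the lists was not tested. Of 16, 4 were called higher and 8 lower at 5 h (median -0.32 on the log2 scale), against 24.9% and 27.2% of all genes (median -0.01). Pou5f1, which encodes OCT4, rose the most, from 617 ± 48.3 to 1033 ± 246 CPM (SD, n = 3; log2 fold change 0.74, SE 0.15, edgeR adjusted p = 0.000696), and Tfcp2l1, a factor of the naive network, fell the most (-1.25, SE 0.19, edgeR adjusted p = 7.05e-05). The other 3 that rose were Nanog (0.62), Zfp42 (0.59) and Nr0b1 (0.59). Sox2 was at 0.02 (SE 0.09) and was not called. At 48 h 6 were called higher and 1 lower: Sox2 rose by 0.66 (SE 0.09, edgeR adjusted p = 5.86e-05) and Tbx3 fell by 0.52 (log2 fold change -0.52, SE 0.12, edgeR adjusted p = 0.00499).

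Of 14 tested genes of 18 listed for the Nodal and GDF pathway, 3 were called higher and 10 lower at 5 h, with a median of -0.72, where 24.9% and 27.2% of all genes were. Smad3, a signal transducer of Nodal, fell from 26.1 ± 1.18 to 7.79 ± 1.13 CPM (SD, n = 3; log2 fold change -1.74, SE 0.15, edgeR adjusted p = 5.16e-07), and Skil, a feedback inhibitor of the same signal, rose by 0.58 (SE 0.21, edgeR adjusted p = 0.0296). The receptor gene Acvr2a (0.52) and the ligand gene Nodal (0.37) rose as well. At 48 h 3 were higher and 4 lower (12.2% and 15.6% of all genes), with Skil at 0.91 (SE 0.21, edgeR adjusted p = 0.00402) and the inhibitor gene Smad7 at -0.63 (SE 0.11, edgeR adjusted p = 0.000667). Lefty1, a Nodal antagonist and target, was also higher (1.81, from 2.09 to 7.30 CPM), as was Acvr2a (0.78), and Pcsk6 (-0.52), Smad3 (-0.52) and Nodal (-0.39) were lower. Genes outside the naming rule in this and the next 3 paragraphs are the rest of small groups of calls, named after their values were seen.

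Of 21 tested genes of the FGF receptors and the ERK pathway, 1 was called at 1 h, where 0.27% of all genes were. It was Spry4, an ERK-induced inhibitor, which was lower (log2 fold change -0.76, SE 0.14, edgeR adjusted p = 0.0308). A link to the fall of Fgf4 was not tested. Spry4 was named here after its value was seen, because it was the single call. At 5 h 10 were lower (27.2% of all genes) and the other 11 were not called, the largest fall among genes of at least 10 CPM being that of the receptor adaptor Frs2 (log2 fold change -0.93, SE 0.21, edgeR adjusted p = 0.00167). At 48 h 5 were higher and 4 lower (12.2% and 15.6% of all genes). Among genes of at least 10 CPM, Dusp4, an ERK phosphatase, rose the most (0.62, SE 0.15, edgeR adjusted p = 0.00478) and the ERK target Etv4 fell the most (-0.87, SE 0.12, edgeR adjusted p = 4.72e-05). Other higher genes included the receptor gene Fgfr2 (0.90), Etv5 (0.48) and Spry2 (0.31), and the other lower ones were the ERK phosphatase gene Dusp6 (-0.84), Fgfr4 (-0.81) and Map2k1 (-0.42).

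Of the 10 genes of the AKT pathway, which TCL1 serves, 7 were called lower at 5 h, where 27.2% of all genes were, and the other 3 were not called. The kinase gene Akt1 was among those lower (log2 fold change -0.84, SE 0.12, edgeR adjusted p = 2.89e-05). At 48 h 1 was called higher and 2 lower, against 12.2% and 15.6% of all genes, with a list median of 0.10. The 2 lower ones were Akt1 (-0.79, SE 0.12, edgeR adjusted p = 0.000114) and Akt2 (-0.68). Of 12 tested targets and partners of DPPA2, DPPA4 and DPPA3, 1 was higher and 1 lower at 5 h, against 24.9% and 27.2% of all genes. The higher one was Zscan4d (1.10), a gene of the early embryo, and Dnmt1, the maintenance DNA methyltransferase, was the lower one (-0.39, SE 0.12, edgeR adjusted p = 0.0128). At 48 h 2 were higher and 1 lower, against 12.2% and 15.6% of all genes. The lower one was Uhrf1, the binding partner of DPPA3 (-0.29, SE 0.10, edgeR adjusted p = 0.0491), and the higher ones were Zscan4b (1.66) and Usp17la (1.00). The genes called higher at 5 h or 48 h had means below 10 CPM. The Zscan4 genes in this list are near-identical copies, so their counts are uncertain.

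Among 17 other tested stem cell and germ line markers, 5 were higher and 4 lower at 5 h, shares near the 24.9% and 27.2% over all genes. Fbxo15 rose by 1.05 (SE 0.13, edgeR adjusted p = 9.71e-06) and Slc2a3 fell as given above. Stra8 (1.55), Ooep (0.94), Khdc3 (0.83) and Spp1 (0.52) rose, and Mybl2 (-0.66), Alpl (-0.58) and Lin28a (-0.43) fell. At 48 h 2 were higher and 3 lower, shares near the 12.2% and 15.6% over all genes. L1td1 was at 0.48 (SE 0.10, edgeR adjusted p = 0.00179) and the egg gene Khdc3 at -2.21 (SE 0.17, edgeR adjusted p = 3.89e-07). Trim28 was higher (0.47), and the meiosis gene Stra8 (-2.12) and Tex19.1 (-0.39) were lower.

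**Figure D5:**
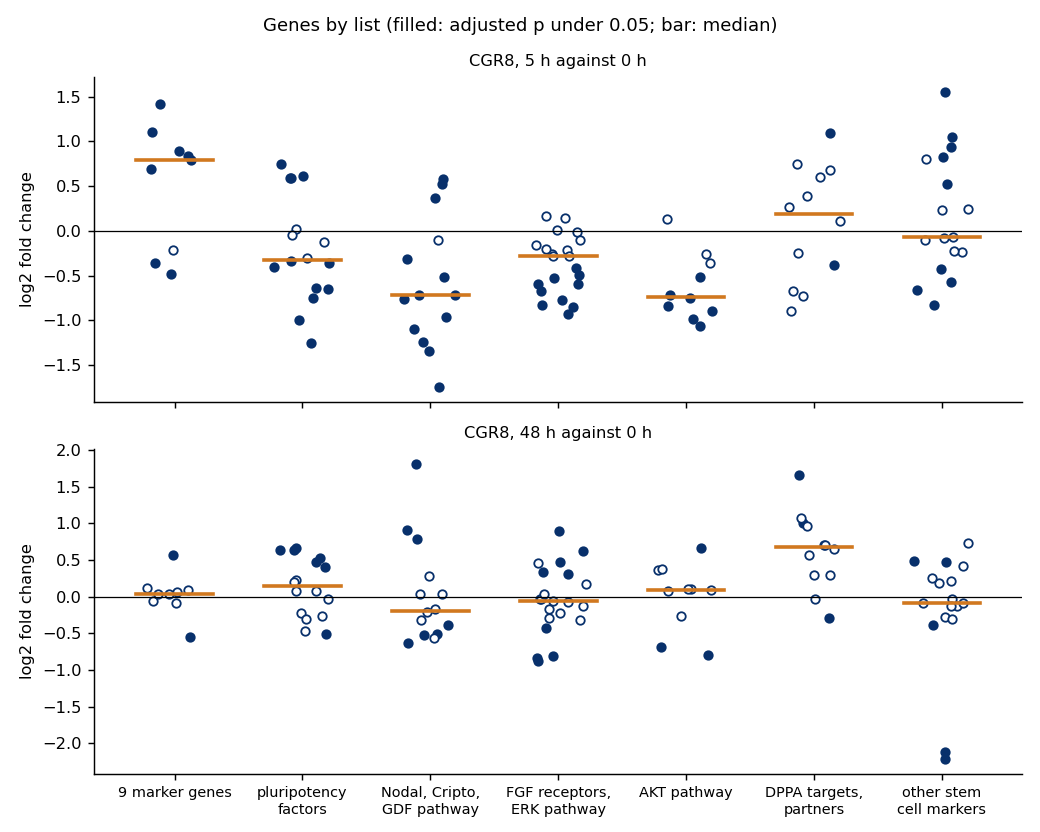
Log2 fold change in CGR8 at 5 h and 48 h against 0 h of each tested gene of 7 lists, as points (filled where the edgeR adjusted p is under 0.05), with the list's median as a bar. At 5 h the median is 0.80 for the 9 marker genes and -0.72 and -0.73 for the Nodal and AKT pathway lists. All values are as fitted, without the length and GC correction.

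Markers of other states moved over the same hours. Over all genes, 24.9% were called higher and 27.2% lower at 5 h, and 12.2% and 15.6% at 48 h. The calls at 5 h were mixed in the primed, the trophectoderm and the primitive endoderm lists. Of the primed markers 2 were higher and 2 lower, and of the trophectoderm markers 1 was higher and 2 lower. In CGR8, 6 markers of primed pluripotency summed to 320 to 344 CPM at 0 h, 262 to 308 CPM at 5 h and 630.3 to 870 CPM at 48 h, with 3 of 5 tested genes called higher at 48 h and no gene at 0 in all 3 libraries. The 6 trophectoderm markers summed to 49.0 to 54.1 CPM at 0 h, 21.2 to 28.1 CPM at 5 h and 11.3 to 15.3 CPM at 48 h, with 3 of 5 tested genes called lower at 48 h. The 4 mesoderm markers summed to 25.4 to 26.9, 5.95 to 6.69 and 3.99 to 5.30 CPM at these times, with all 3 tested genes lower at 48 h, and Eomes is in both lists. The 3 neuroectoderm markers summed to a mean of 18.1 CPM at 0 h and 28.4 CPM at 48 h, where the libraries ran from 25.8 to 30.6 CPM. Of these markers 2 were called higher at 5 h, and 2 at 48 h. In NIH/3T3 at 0 h they summed to 28.8 to 30.7 CPM, so this list does not set the lines apart. The 6 primitive endoderm markers summed to 3.31 to 3.98 CPM at 0 h, 2.89 to 3.51 CPM at 5 h and 4.77 to 5.15 CPM at 48 h. Of 5 tested, Dab2 (1.62) was called higher and Sox7 (-2.06) and Pdgfra (-0.86) lower at 5 h, and Gata4 higher and Sox7 (-1.88) lower at 48 h. The part of these shifts in the levels of the 9 genes was not tested.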

How the data were processed

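The table deposited by the authors holds unnormalized read counts of 57186 gene identifiers in 30 libraries; the values are whole numbers with totals of 18.2 to 30.5 M. Column-purified RNA went into stranded mRNA libraries, per the labels' protocols. The submitters' processing notes name STAR, DESeq2 and GRCm39, without their roles; the counting tool, its use of strand and the annotation release are not given in the sources used here. All 30 columns were used. Symbols matched 51880 identifiers (90.7%) through GENCODE M21 (GRCm38), which also gave lengths and UTRs; member coordinates on the files' build are not printed.

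CGR8 libraries were fitted in 1 model (edgeR 4.0.16, TMM, filterByExpr with a minimum count of 10, quasi-likelihood F test) in R 4.3.3, with Benjamini-Hochberg adjustment over all 15933 tested genes and calls at 0.05. All 9 genes passed the filter. Counting error alone bounds the precision of the scarce genes. The code was tested on simulated data. Settings tried were RLE and library-size scaling, DESeq2 1.42.0, no filter, a filter at 5 CPM, a block on the replicate letter, fits on the groups compared alone, and each library left out. The NIH/3T3 and between-line tests, the length and GC trend, voom weights (limma 3.58.1) and leaving out both libraries that stood apart were added after seeing the data. The members and lists were chosen with earlier results of these data known.

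Named genes are the 9; the called list member with the largest rise and fall at 5 h and 48 h at 10 CPM or more in the higher group; the 2 genes most correlated with each member over 15 libraries, passing over predicted genes; and the members' neighbours. A few pathway genes that it selects are not reported here. Same-letter libraries deviated together (r over 0.1) in 9 of 30 pairs (range -0.578 to 0.421), so the letters were not taken as pairs.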

Additional observations from a re-analysis of the deposited data

Results flagged for a closer look

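Dppa4 and Dppa2 changed by different amounts in the stem cells and the fibroblasts, by the interaction test in edgeR. For Dppa4, the change from 0 h to 5 h was 0.49 larger on the log2 scale in CGR8 than in NIH/3T3 (adjusted p = 0.0385), and the change from 5 h to 48 h differed by -0.43 (adjusted p = 0.0474). These calls were fragile. The first was kept in 3 of 12 fits that left out 1 library and the second in 2 of 12. Without CGR8 5 h replicate A, the values were 0.22 (adjusted p = 0.504) and -0.11 (adjusted p = 0.722). In the fit of CGR8 alone, the Dppa4 change at 5 h stayed between 0.73 and 0.84 with 1 library left out. With the length and GC trend removed, the line differences were 0.23 (adjusted p = 0.226) and -0.18 (adjusted p = 0.295). For Dppa2, the change from 5 h to 48 h differed by -0.75 (adjusted p = 0.00166). This call was kept in 11 of 12 such fits, the exception being that without CGR8 5 h replicate B (-0.46, adjusted p = 0.0608), and held with the trend removed (-0.72, adjusted p = 0.00432). Dppa2 rests on 81 to 138 counts per library in NIH/3T3.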

How the results depend on the processing

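Leaving out 1 library at a time, 7 to 8 of the 9 genes were called at 5 h, 7 to 8 from 5 h to 48 h, 2 to 6 at 2 h, 0 to 2 at 48 h and 0 to 1 at 1 h. At 48 h 1 gene in place of 2 was called with no filter, with the 5 CPM filter (which leaves out Dppa3), with the replicate block, on the groups compared alone and without both libraries that stood apart, and 3 with the length and GC trend removed. At 2 h 2 in place of 5 were called on the groups compared alone and with the length and GC trend removed. At 1 h voom weights gave 2 calls, adding Tdgf1 (0.36, adjusted p = 0.00422). The replicate block moved the Dppa3 value at 48 h to 0.57 (adjusted p = 0.0588) and the Dppa4 difference between the lines from 5 h to 48 h to -0.42 (adjusted p = 0.0553), and changed no other call; 5 of 15 libraries correlated best with their own letter. Library-size scaling moved the 5 h median over all tested genes to -0.12 and made Tcl1 a call there (-0.32, adjusted p = 0.0459); at 1 h 68.4% of 38 called genes were then higher, against 53.5% of 43 with TMM.

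Directions turned in values that were called neither before nor after. With no filter, Gdf3 at 1 h was -0.034. With voom weights, Dppa2 and Tcl1 at 48 h were 0.034 and 0.035, and NIH/3T3 Dppa4 at 1 h was -0.16. With the length and GC trend removed, CGR8 Dppa2 and Gdf3 at 1 h were -0.094 and -0.020, Tcl1 at 48 h 0.050, NIH/3T3 Dppa4 at 1 h and 48 h -0.0092 and 0.12, NIH/3T3 Dppa2 from 5 h to 48 h 0.17, and the line difference of Dppa2 at 2 h -0.058. That difference was -0.0029 with RLE scaling, -0.0060 with DESeq2 and -0.0011 with the 5 CPM filter. With library-size scaling, Dppa4 at 48 h was 0.050 in NIH/3T3 and -0.020 as a line difference. Without both libraries, Dppa2 and Tcl1 at 48 h were 0.029 and 0.076. With 1 library left out, values at 1 h ran from -0.049 to 0.13 for Gdf3, from -0.10 to 0.15 for NIH/3T3 Dppa4 and from -0.044 to 0.17 for its line difference. At 2 h they ran from -0.24 to 0.093 for Tcl1 and from -0.037 to 0.17 for the Dppa2 line difference. At 48 h they ran from -0.14 to 0.030 for Dppa2, -0.0081 to 0.075 for Fgf4, -0.16 to 0.077 for Tcl1, -0.0060 to 0.099 for Tdgf1, -0.0019 to 0.30 for Utf1 and -0.058 to 0.0095 for NIH/3T3 Dppa4. The cause was not tested. Of 180 group levels under other scalings, 170 lay within 1 SD. Among them are NIH/3T3 groups without a single count, such as those of Dppa3 and Tcl1, which no scaling can move.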
